A study of Mus musculus with 6 samples.

Results

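The genes described here are the 10 genes of nonhomologous end joining named Xrcc5, Xrcc6, Prkdc, Dclre1c, Polm, Lig4, Xrcc4, Nhej1, Rad50 and Mre11a, taken by name from the 38561 genes counted in each library. They were measured by RNA-Seq of small intestinal mucosa from C57BL/6J mice aged 8 to 12 weeks. For each of 2 genotypes there were 3 pools, and each pool held RNA of 3 mice of both sexes by the labels (the study's methods give slightly wider ranges of mice per pool and of age), so a pool is an average over mice and n is 3 pools a group. The first group is labelled Rbm47_IKO, in which the study's methods describe a constitutive Vil-Cre deletion of Rbm47, an RNA-binding protein. Villin-Cre acts in the intestinal epithelium and not in the immune, stromal or muscle cells that mucosa also contains. The second group is labelled wt, and the methods name floxed Rbm47 fl/fl mice as the controls. No pool received a treatment that the labels name.

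Nonhomologous end joining is the repair of a DNA double-strand break by direct ligation of its ends. The Ku heterodimer binds each end and recruits a kinase, a nuclease trims ends that cannot be joined as they are, polymerases fill gaps, and a ligase complex seals the break. The pathway works throughout the cell cycle, and the same proteins join the breaks made during V(D)J recombination in developing lymphocytes. In the intestine it is known as one of the routes by which crypt cells repair radiation damage.

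Every pool held between 31560320 and 38951830 counts. Rbm47 itself was not lower in the pools labelled Rbm47_IKO. Its level there was 603, 625 and 620 normalized CPM (counts scaled by TMM library sizes), against 460, 450 and 472 in the wt pools. The log2 fold change was 0.42 (SE 0.10), with an adjusted p of 0.0751 in edgeR's quasi-likelihood test. The tables count all exons of a gene together, so a deletion of part of the gene cannot be seen in them. The counts of Rbm47 do not show that the pools carry the genotypes of their labels, and every direction below rests on the labels as given. The intestine's own markers were abundant, with 8 enterocyte genes summing to between 36083 and 42529 CPM in every pool. The smooth muscle genes stood apart, at 3302 CPM in pool 3 labelled Rbm47_IKO and 2803 in wt pool 2 against 90.7 to 586 in the other 4 pools.

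The start sites of the genes the results turn on are shown first, because Lig4 and Xrcc4, like some other members, start close to a neighbour on the other strand. The sequences are the stretches before the start that lie in no annotated UTR, from RefSeq promoter windows of GRCm38.p6, read 5′ to 3′ on the gene's own strand. Lig4 lies at chr8:9970020-9977686 on the minus strand, and its start is 21 bases from that of Abhd13. The stretch shown is the 20 bases at chr8:9977687-9977706, the whole gap between both start sites. Xrcc4 lies at chr13:89774027-90089608 on the minus strand and starts 485 bases from Tmem167. Its stretch is the 78 bases at chr13:90089781-90089858, with a GC box on the opposite strand in capitals. The remaining 172 of the 250 bases before the Xrcc4 start lie in annotated UTRs. Tmem167 shares exon bases with Xrcc4 and so starts inside it, and the stretch is not a gap between their start sites. Xrcc5, at chr1:72307421-72394952 on the plus strand, is shown as a member with nearly equal levels in both groups. Its stretch is the 250 bases at chr1:72307171-72307420, with a CCAAT box on the opposite strand in capitals.
Lig4: ttcatgctacggtagcccgt
Xrcc4: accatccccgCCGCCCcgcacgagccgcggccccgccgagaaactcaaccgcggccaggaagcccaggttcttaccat
Xrcc5: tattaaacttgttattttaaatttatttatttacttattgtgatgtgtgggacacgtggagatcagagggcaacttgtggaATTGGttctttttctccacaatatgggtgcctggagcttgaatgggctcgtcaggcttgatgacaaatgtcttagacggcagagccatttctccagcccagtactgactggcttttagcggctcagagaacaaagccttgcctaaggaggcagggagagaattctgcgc

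The 300-base windows (250 bases before the start and 50 after) of 8 members were in the promoter table of 32851 windows, and Prkdc and Rad50 had none. The windows of Xrcc6 and Nhej1 belong to starts 28534 and 78587 bases from the start in the authors' tables. Both strands were searched for the CCAAT box (CCAAT), the GC box (GGGCGG), the TATA box (TATAAA), E2F sites (TTTCCCGC or TTTGGCGC) and the NRF1 core (GCGCATGC). The share of all windows with a match was 37.4%, 35.7%, 13.6%, 1.56% and 2.71% in that order. Lig4 and Xrcc4 had no motif in common. Lig4 had 2 windows in the promoter table, and the 1 nearest its start was used. The Lig4 window held 2 matches to the NRF1 core, 1 on each strand, which overlap each other. They lie at bases 197 to 206 of the window. Of the 250 bases before the start, 230 lie in annotated UTRs, and both matches are among these. The Xrcc4 window held 3 GC boxes. Xrcc5 held 1 NRF1 core and 1 CCAAT box, Xrcc6 held an E2F match, and no member's window held the TATA letters. Xrcc6, Polm and Mre11a also held 3 GC boxes each. CG dinucleotides numbered 30 in the windows of Lig4 and Xrcc6, 31 in Xrcc4 and 26 in Mre11a, 17 in Polm, 12 in Dclre1c, 10 in Nhej1 and 9 in Xrcc5, against a median of 7 over all windows.

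All 10 members passed the filter on low counts, and none was called between the genotypes. The same test called 443 of 16425 genes (2.70%), with 205 of them lower in the pools labelled Rbm47_IKO (1.25%). At an unadjusted p under 0.05 there were 2 members, Lig4 and Xrcc4, both lower, where 8.21% of all genes were lower at that level. This count of members ran from 0 to 3 with 1 pool left out, and was 0 without wt pool 1 and 0 without the filter. DESeq2 and limma-voom also called 0 members, with 1 and 2 members at an unadjusted p under 0.05. The fitted fold change was below 0 for 9 of 10 members, against 50.7% of all genes, and its median was -0.20 on the log2 scale, against -0.0059 over all genes tested. In 3 members, Lig4, Xrcc4 and Mre11a, every pool labelled Rbm47_IKO was below every wt pool, where 11.6% of all genes were. Without wt pool 1 the median of the members was -0.11. In bulk mucosa, fewer cells that express a gene and less RNA of it per cell cannot be told apart.

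**Figure D1:**
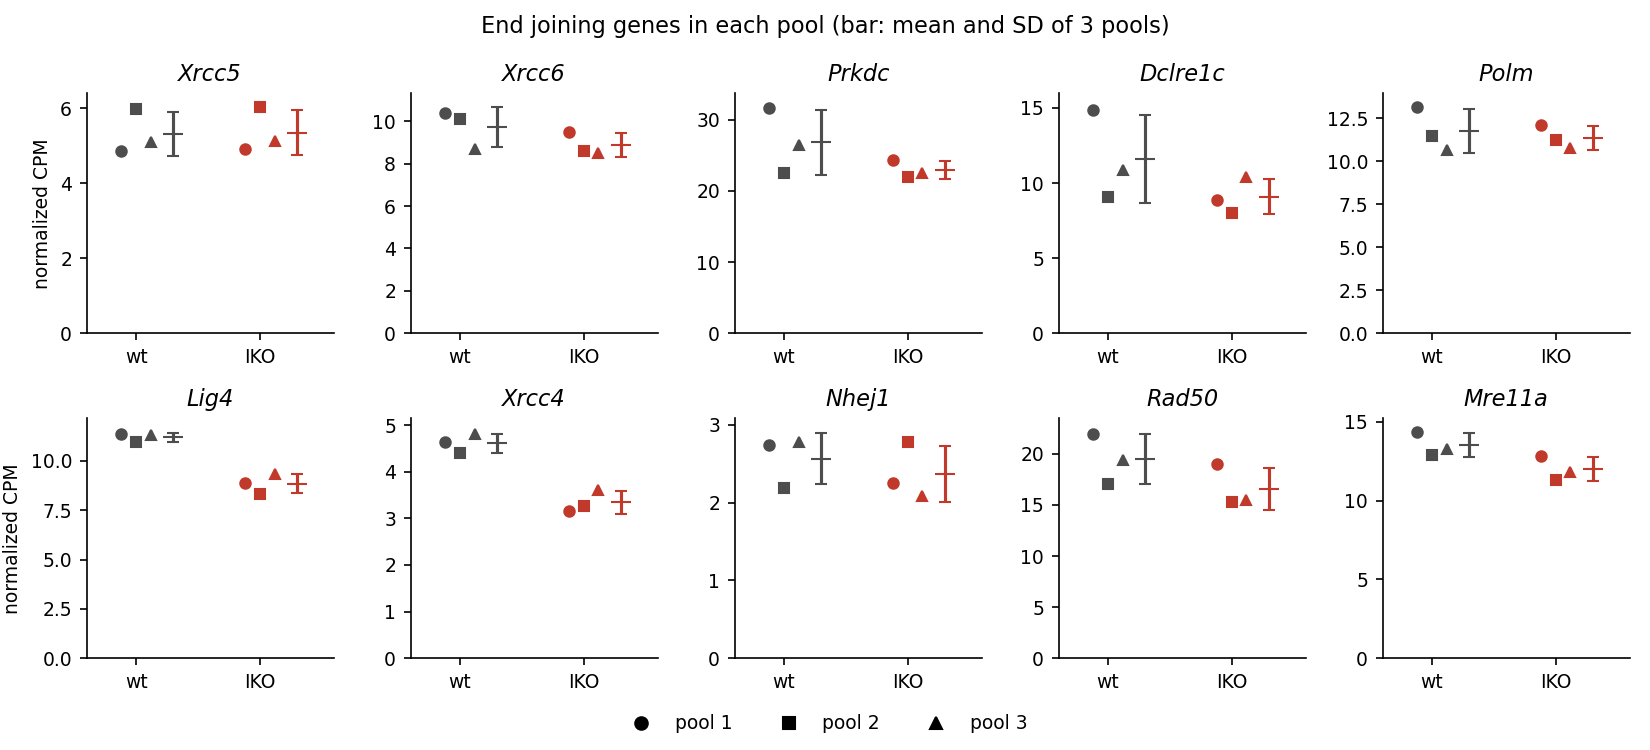
Normalized CPM of each of the 10 end joining genes (y axis, from 0) in the 3 wt pools (grey) and the 3 pools labelled Rbm47_IKO (red), with symbols for the pool number and a bar for the mean and SD. The groups separate for Lig4, Xrcc4 and Mre11a, and wt pool 1 is the highest pool for 7 of the 10 genes.

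Lig4 and Xrcc4 encode the ligase that seals the break and the scaffold protein that binds and stabilizes it. Lig4 had 308, 316 and 304 counts in the pools labelled Rbm47_IKO and 386, 415 and 412 in the wt pools. As normalized CPM, these were 8.90, 8.34 and 9.31 CPM against 11.4, 10.9 and 11.3 CPM, so the groups did not overlap and the wt pools lay close together (SD 0.229 around a mean of 11.2, n = 3). This gave a log2 fold change of -0.34 (SE 0.13, 95% interval -0.65 to -0.030), a change of -21.0%. Its unadjusted p was 0.0353 and its adjusted p 0.253 in edgeR's quasi-likelihood test, so it was not called.

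Xrcc4 was the least abundant member per length and had the most negative fold change of the 10. It had 109, 124 and 118 counts in the pools labelled Rbm47_IKO and 158, 167 and 175 in the wt pools, or 3.15, 3.27 and 3.61 CPM against 4.65, 4.40 and 4.80 CPM. The lowest wt pool stood above the highest pool labelled Rbm47_IKO. The log2 fold change was -0.46 (SE 0.19, 95% interval -0.90 to -0.026), or -27.5%, with an unadjusted p of 0.0406 and an adjusted p of 0.272 in the same edgeR test. The ratio of Xrcc4 to Lig4, as FPKM (CPM per kilobase of exon), was 0.357, 0.396 and 0.392 in the pools labelled Rbm47_IKO and 0.413, 0.406 and 0.429 in the wt pools. The ratio was lower in every pool labelled Rbm47_IKO, and the difference between the fold changes of these genes was not tested.

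The third member of the ligation complex, Nhej1 (also called XLF), stimulates the ligase and bridges the ends. It did not separate the groups. It had 2.25, 2.77 and 2.08 CPM in the pools labelled Rbm47_IKO and 2.74, 2.19 and 2.77 CPM in the wt pools, from 68 to 105 counts a pool. The log2 fold change was -0.11 with a 95% interval of -0.68 to 0.45 (adjusted p = 0.891, edgeR), which includes the fold change of Xrcc4. It was -0.026 without pool 3 labelled Rbm47_IKO and -0.24 without pool 2 of that group.

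The neighbours that start close to these genes give a comparison within the same pools. Abhd13, which starts 21 bases from Lig4, had 2795, 3110 and 2120 counts in the pools labelled Rbm47_IKO and 2304, 3035 and 3327 in the wt pools. Its groups overlapped, with a log2 fold change of -0.070 (SE 0.15, 95% interval -0.41 to 0.27, adjusted p = 0.888, edgeR). Tmem167, opposite Xrcc4, had 59.4, 55.8 and 60.1 CPM against 67.1, 57.6 and 74.1 CPM. Its groups overlapped too, with a log2 fold change of -0.18 (SE 0.12, adjusted p = 0.507, edgeR). Prkdc, Mre11a and Dclre1c also have a neighbour on the other strand that starts within 2000 bases. Mcm4, a replication helicase gene 466 bases from Prkdc, was at -0.14 (adjusted p = 0.857, edgeR), and Ankrd49, 1690 bases from Mre11a, at 0.066 (adjusted p = 0.915, edgeR), both with overlapping groups. Meig1, near Dclre1c, had at most 1 count in a pool. The difference between a member's fold change and that of its neighbour was not tested. Tmem167 shares 112 exon bases with Xrcc4, 2.66% of the exon length of Xrcc4, and whether the counting used strand is not given in the sources used here.

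The Ku heterodimer, made of Ku80 (Xrcc5) and Ku70 (Xrcc6), forms the ring that slides onto a broken end. Xrcc5 had 4.91, 6.02 and 5.11 CPM in the pools labelled Rbm47_IKO and 4.85, 5.98 and 5.10 CPM in the wt pools, which are nearly the same values. Its log2 fold change was 0.0097 with a 95% interval of -0.43 to 0.45 (adjusted p = 0.989, edgeR), and it was the member whose fold change was above 0. The sign turned to -0.022 with upper quartile factors and to -0.00095 with library size alone. Xrcc6 had 9.50, 8.61 and 8.48 CPM against 10.4, 10.1 and 8.67 CPM, with overlapping groups and a log2 fold change of -0.13 (95% interval -0.48 to 0.21, adjusted p = 0.752, edgeR), which was -0.084 without wt pool 1 and -0.20 without wt pool 3. The FPKM ratio of Xrcc5 to Xrcc6 ranged from 0.905 to 1.23 in the pools labelled Rbm47_IKO and from 0.819 to 1.04 in the wt pools, which overlap. Xrcc6 shares 344 exon bases (7.69%) with Desi1 on the other strand.

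Prkdc, the DNA-dependent kinase that Ku recruits, had the highest CPM of the members, being also the longest transcript. Its pools labelled Rbm47_IKO stood at 24.3, 22.0 and 22.5 CPM and its wt pools at 31.6, 22.5 and 26.5 CPM. The 3 wt pools spread over a wide range (SD 4.55, n = 3), and the groups overlapped at the low end of wt pool 2. The log2 fold change was -0.23 (SE 0.14, adjusted p = 0.50, edgeR), and it was -0.095 without wt pool 1. Dclre1c encodes Artemis, the nuclease that this kinase activates. It had 8.90, 8.03 and 10.4 CPM against 14.9, 9.09 and 10.9 CPM, again with wt pool 1 well above the rest. Its log2 fold change was -0.35 (SE 0.21, 95% interval -0.84 to 0.14, adjusted p = 0.478, edgeR), and it was -0.13 without wt pool 1. Dclre1c shares 357 exon bases (3.83%) with Suv39h2 on the other strand.

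Polm encodes DNA polymerase mu, which fills gaps at the ends. It had 12.1, 11.2 and 10.8 CPM in the pools labelled Rbm47_IKO and 13.1, 11.5 and 10.6 CPM in the wt pools, with overlapping groups. The log2 fold change was -0.050 (95% interval -0.38 to 0.28, adjusted p = 0.922, edgeR), and it turned to 0.037 without wt pool 1.

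Rad50 and Mre11a encode the core of the complex that tethers broken ends and begins their resection, which serves homologous recombination as well. Rad50 had 19.0, 15.3 and 15.5 CPM in the pools labelled Rbm47_IKO and 22.0, 17.0 and 19.4 CPM in the wt pools, with a log2 fold change of -0.23 (SE 0.15, adjusted p = 0.506, edgeR). Its groups overlapped at pool 1 labelled Rbm47_IKO, and the fold change was -0.14 without wt pool 1. Mre11a had 12.8, 11.3 and 11.8 CPM against 14.4, 12.9 and 13.3 CPM. Its groups did not overlap, but the gap between them was small, at 12.8 against 12.9 CPM, and the log2 fold change was -0.17 (SE 0.13, 95% interval -0.47 to 0.12, adjusted p = 0.577, edgeR). The FPKM ratio of Rad50 to Mre11a lay between 1.44 and 1.68 in all 6 pools. Nbn, the third subunit of this complex, had 13.9, 12.8 and 11.5 CPM against 12.5, 14.3 and 14.4 CPM, with a log2 fold change of -0.11 (adjusted p = 0.789, edgeR), which ranged from -0.18 to -0.039 with 1 pool labelled Rbm47_IKO left out.

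**Figure D2:**
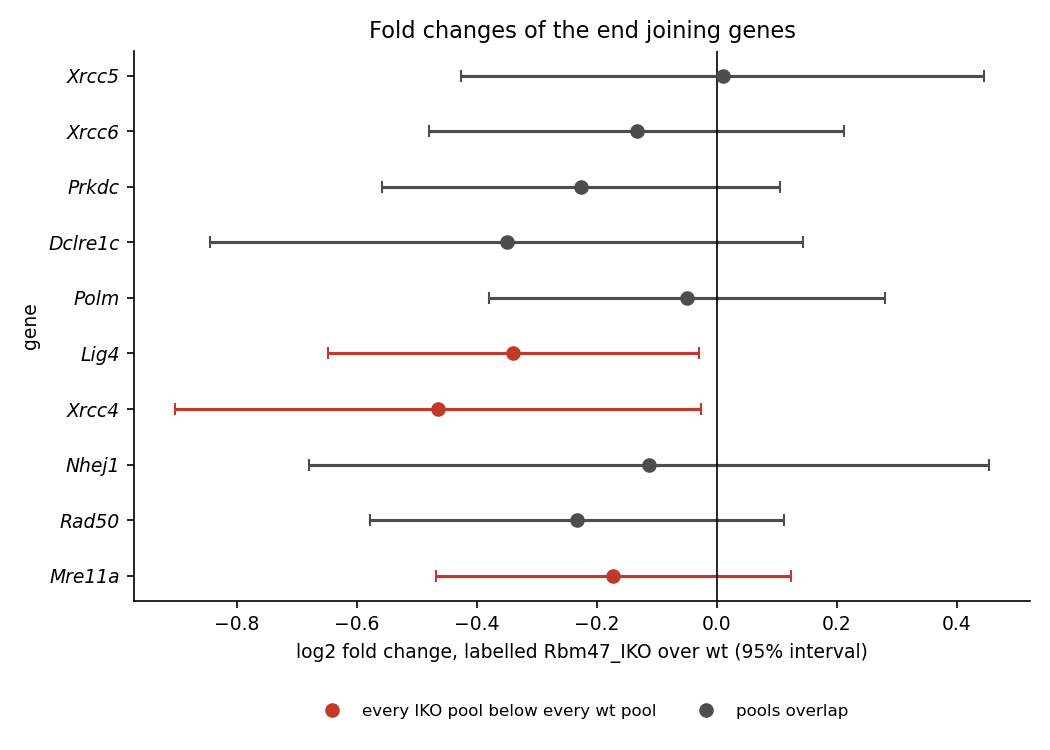
Log2 fold change of each end joining gene, pools labelled Rbm47_IKO over wt (x axis), with the 95% interval from edgeR's quasi-likelihood fit; red marks genes whose pools do not overlap. The intervals of Lig4 and Xrcc4 end just below 0 (at -0.030 and -0.026), and the other 8 include 0.

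Per length, the members were expressed at middling levels. In the wt pools Rad50 was highest at 3.62 FPKM (SD 0.461, n = 3), followed by Polm at 3.21, Lig4 at 2.63, Nhej1 at 2.44, Mre11a at 2.29, Xrcc6 at 2.17, Xrcc5 at 2.08, Prkdc at 2.03, Dclre1c at 1.25 and Xrcc4 at 1.10 FPKM. The median of all genes tested was 2.89 FPKM, and the members stood between its 31.5th and 54.4th percentiles. In this order only Polm from Lig4 and Prkdc from Dclre1c stood apart in all wt pools, and every other pair of neighbours overlapped. In the pools labelled Rbm47_IKO, Lig4 stood at 2.08 FPKM, beside Xrcc5 at 2.09 and Mre11a at 2.03, whose pools overlap it. The level of Xrcc6 was computed over 4476 exon bases, which include exons before the RefSeq start, so its level per length may be understated.

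The members did not spread evenly over the pools. Wt pool 1 was the highest of the 6 pools for 7 members, and pool 2 labelled Rbm47_IKO was the lowest for 5. Summed over the 10 members, the level was 106, 96.8 and 99.6 CPM in the pools labelled Rbm47_IKO and 130, 107 and 113 CPM in the wt pools, so the highest pool of the first group lay just under the lowest of the second. Among the 45 pairs of members, log2 CPM over the 6 pools was most alike for Lig4 and Xrcc4. Their pools fall into 2 separate groups of 3 by genotype, so no coefficient is given for them. The least alike pair was Xrcc5 and Prkdc, with Pearson's r of -0.68 (exact permutation p = 0.110, adjusted over 45 pairs 0.369) and Spearman's rho of -0.94 (exact permutation p = 0.0167, adjusted 0.15), and r was -0.64 without the 2 pools farthest from the median of Xrcc5. Xrcc5 was nearly as unlike Rad50 (r of -0.678) and Dclre1c (r of -0.667), each with an adjusted p of 0.369 by the same permutation test. Without the same 2 pools these were -0.74 and -0.39. Of 120 other listed genes, the 3 whose standardized log2 CPM was most like the mean profile of the members over the same 6 pools by Pearson's r were Trac, the T cell receptor alpha constant gene, and the repair genes Mad2l2 and Rad51d. Each of them and the mean profile also separate the pools by genotype, so their coefficients are not given. Trac had 33 to 79 counts a pool, and the other T cell genes ranked from 9 (Cd8b1) to 94 (Cd3e) of the 120.

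Marker genes of other cells differed between these pools as well. The 10 proliferation genes summed to 274, 206 and 162 CPM in the pools labelled Rbm47_IKO and 316, 222 and 187 CPM in the wt pools, so wt pool 1 was again the highest, and 8 of the 10 were lower in the pools labelled Rbm47_IKO with 0 called by edgeR, DESeq2 or limma-voom (1 at an unadjusted p under 0.05 in each). That gene was Pcna, the replication clamp, at 12.3, 13.2 and 9.86 CPM against 15.9, 17.4 and 15.4 CPM (adjusted p = 0.165, edgeR). The 8 T cell genes summed to 49.7, 48.3 and 42.0 CPM against 60.8, 42.1 and 44.9 CPM, also with wt pool 1 highest. The same pool was highest for the 6 Paneth cell genes, which summed to 929, 1056 and 564 CPM against 1991, 1410 and 551 CPM. The 6 enteroendocrine genes summed to 127, 127 and 116 CPM against 152, 196 and 182 CPM, without overlap. Among them, Cck had a log2 fold change of -1.24 and Gip of -0.76 (adjusted p = 0.101 and 0.0870, edgeR), each without overlap. Of the 8 B and plasma cell genes, 7 were lower and Sdc1, which epithelial cells also express, was higher at 141 against 61.0 CPM (adjusted p = 0.0119, edgeR). Their sum was 205 to 277 CPM against 169 to 215 CPM, of which Sdc1 was the larger part in the pools labelled Rbm47_IKO, while the plasma cell gene Jchain, at 134, 79.7 and 108 CPM, exceeded it in the wt pools. Of the remaining markers, 5 of 6 goblet, 1 of 6 Paneth, 0 of 6 enteroendocrine, 4 of 8 enterocyte, 5 of 6 smooth muscle and 2 of 8 T cell genes were higher in the pools labelled Rbm47_IKO, and edgeR called 0 of them (2, 0, 3, 3, 0 and 0 at an unadjusted p under 0.05 in that order), while DESeq2 called 2 goblet, 2 enteroendocrine and 2 enterocyte genes. Over all 16425 genes tested, edgeR called 443 and DESeq2 1243, and 2756 had an unadjusted p under 0.05 in edgeR. The part of these cell types in the levels of the members was not tested. With the 2 pools of high smooth muscle genes left out, Lig4 stood at -0.40 and Xrcc4 at -0.56 (adjusted p = 0.238 and 0.234, edgeR), and Dclre1c at -0.61 (adjusted p = 0.153) was then the most negative member.

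Base composition also moved with the comparison. Over 16221 genes the log2 fold change was larger at higher GC content, with a Spearman's rho of 0.27 computed over genes and not over replicates. Lig4 and Xrcc4 are both 42.1% GC, at the 11.9th percentile of the genes tested, and Dclre1c at 39.6% lies at the 4.78th. With a GC curve fitted in each pool as an offset, Lig4 was -0.22 (adjusted p = 0.686, edgeR), Xrcc4 -0.35 (adjusted p = 0.612) and Dclre1c -0.18 (adjusted p = 0.822), and no member had an unadjusted p under 0.05. Prkdc moved to -0.13, Polm to -0.18 and Xrcc6 to -0.20, and the median of the members was then -0.18.

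**Figure D3:**
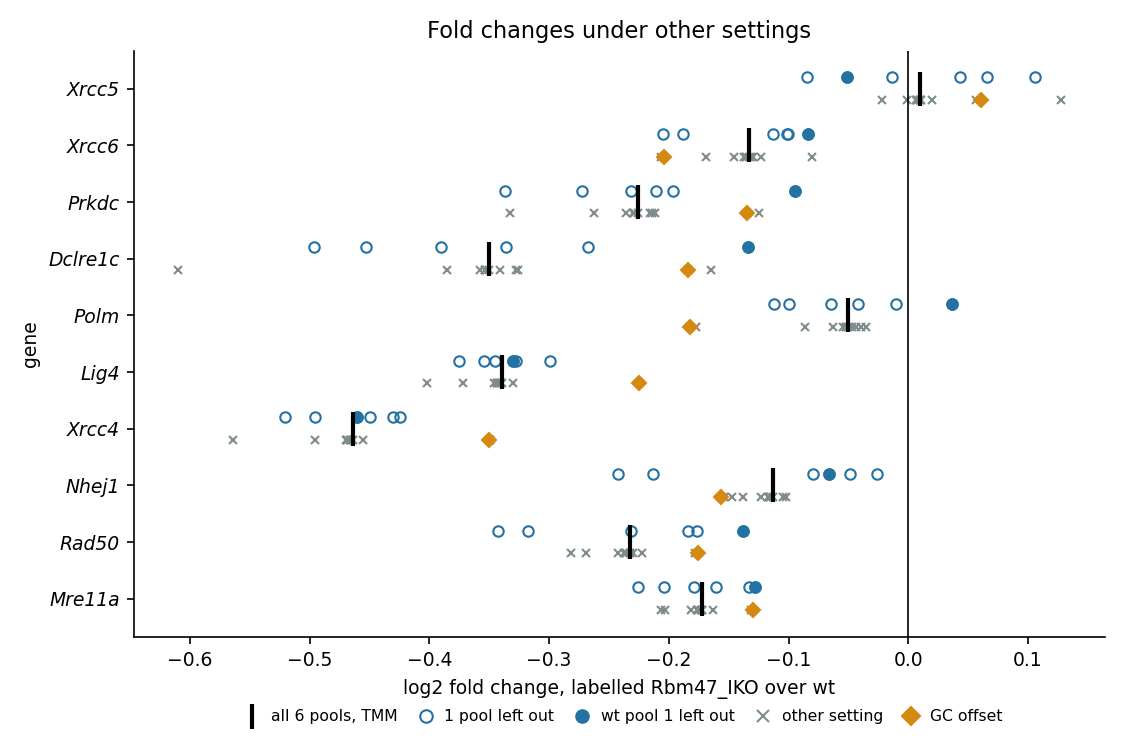
Log2 fold change of each end joining gene (x axis) with all 6 pools (black bar), with 1 pool left out (blue circles, filled for wt pool 1) and under other settings (grey crosses, orange for the GC offset). Lig4 and Xrcc4 stay below -0.22 in every setting shown, while Prkdc, Dclre1c, Rad50 and Polm move toward or past 0 without wt pool 1.

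The other genes of end joining were listed by role. Of the 15 that the tables held, 14 were tested, with 11 lower, 3 higher and 0 called by edgeR, DESeq2 or limma-voom (2 at an unadjusted p under 0.05 in each). Their median log2 fold change was -0.076. In 5 of them the pools labelled Rbm47_IKO were all below the wt pools, where 11.6% of all genes were. Cyren encodes a small protein known to restrain end joining and had 1.82, 1.69 and 1.99 CPM against 4.26, 2.56 and 3.57 CPM. Its log2 fold change was -0.92 (SE 0.27, adjusted p = 0.126, edgeR), the lowest of this list. Mad2l2, a subunit of shieldin, which protects ends from resection, had 4.53, 4.36 and 4.93 CPM against 9.21, 6.22 and 5.79 CPM (log2 fold change -0.62, SE 0.22, adjusted p = 0.218, edgeR, and -0.38 without wt pool 1). Poll encodes DNA polymerase lambda, the relative of Polm, and had 5.11, 5.20 and 4.32 CPM against 5.50, 5.32 and 6.12 CPM (log2 fold change -0.21, adjusted p = 0.646, edgeR), and it was at -0.13 without pool 3 labelled Rbm47_IKO and at -0.37 with the GC offset. Dntt, the template-independent polymerase of developing lymphocytes, was below the filter, with means of 0.106 and 0.0741 CPM.

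The competing routes of repair were compared in the same way. Alternative end joining, which relies on short homologies, PARP1 and polymerase theta, had 6 genes tested, 5 lower and 1 higher, and a median log2 fold change of -0.040. Parp1 was at -0.083 and Parp2 at -0.082, with adjusted p of 0.897 and 0.848 (edgeR), and both turned above 0 without wt pool 1. Homologous recombination copies the sister chromatid, and of its 22 genes 16 were lower and 6 higher, with a median of -0.13. Rad51d, a gene of this route, had 11.4, 9.56 and 10.1 CPM against 13.5, 11.8 and 12.2 CPM (log2 fold change -0.27, adjusted p = 0.397, edgeR). Rad52, a single-strand annealing protein, was at -0.38 (adjusted p = 0.428, edgeR), and at -0.22 without wt pool 1. In both routes 0 genes were called by edgeR, DESeq2 or limma-voom, with 0 at an unadjusted p under 0.05.

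Break signalling genes sense the break and relay it to the cell cycle. Of 10 tested, 6 were lower and 4 higher, with a median of -0.19 and 0 called by edgeR, DESeq2 or limma-voom (1 at an unadjusted p under 0.05 in each). Their pools did not overlap in 3 of 10 genes, where 23.3% of all genes did not in either direction. Trp53, the p53 gene, was among these, at 12.1, 14.0 and 12.5 CPM in the pools labelled Rbm47_IKO and 10.7, 9.62 and 7.82 CPM in the wt pools (log2 fold change 0.46, SE 0.16, adjusted p = 0.209, edgeR). Rnf168, a ubiquitin ligase acting at break sites, was at -0.22 (adjusted p = 0.410, edgeR).

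The median of the p53 target genes lay on the other side of 0 from that of the members. Of 10 tested, 9 were higher and 1 lower, with a median of 0.20, and 1 was called, where 2.70% of all genes were called and 50.7% lay below 0. Sesn2, a stress-responsive regulator of growth signalling, had 13.6, 16.4 and 13.1 CPM against 8.44, 8.80 and 8.67 CPM (log2 fold change 0.74, SE 0.14, adjusted p = 0.043, edgeR). With any 1 pool left out the fold change was 0.63 to 0.80 and the adjusted p above 0.05, from 0.0646 to 0.255, and with the GC offset they were 0.57 and 0.228. Bax, which opens the mitochondrial membrane in apoptosis, had 19.6, 23.9 and 20.3 CPM against 12.5, 15.5 and 14.5 CPM (log2 fold change 0.59, SE 0.14, adjusted p = 0.0740, edgeR). It was not called by edgeR, and with the GC offset it was at 0.37 (adjusted p = 0.453), while DESeq2 called both genes and limma-voom called Sesn2. Of all 16425 genes tested, DESeq2 called 1243 and limma-voom 431. The difference between these genes and the end joining genes was not tested.

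**Figure D4:**
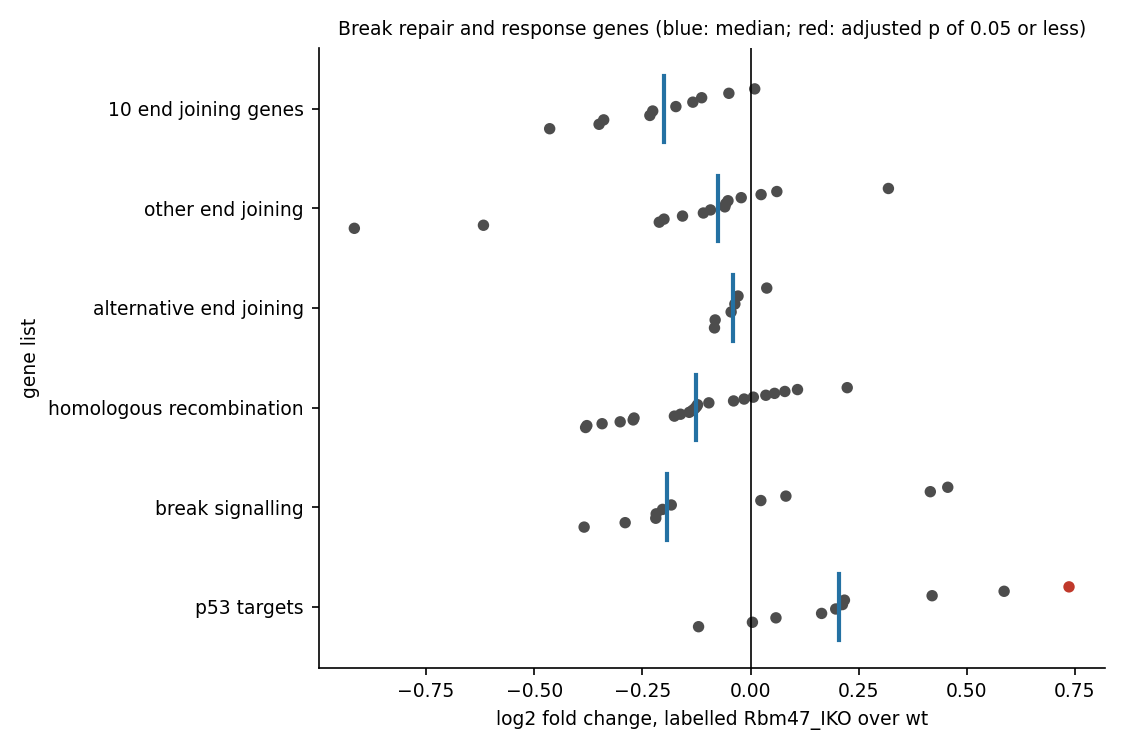
Log2 fold change, pools labelled Rbm47_IKO over wt (x axis), of each tested gene in 6 lists (rows), with the list's median in blue and genes with an adjusted p of 0.05 or less in red. The medians of the 5 repair and signalling lists lie between -0.20 and -0.040 and that of the p53 targets at 0.20, and Sesn2 is the red point.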

How the data were processed

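RNA pools were oligo(dT)-selected and sequenced on an Illumina instrument. The submitters' processing notes name STAR 2.5.1a, Subread featureCounts 1.4.6-p5 and GRCm38, and the strand setting is not given in the sources used here. The authors deposited 1 table per pool with raw counts for 38561 Ensembl genes. The deposited CPM values are those counts relative to each pool's total, and the deposited RPKM values divide them further by gene length in kilobases. Both were recomputed from the counts and were not used further. Symbols came from GENCODE M21 (GRCm38), which held 36723 of the genes.

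Genes past filterByExpr (16425) were tested with edgeR 4.0.16 (TMM, quasi-likelihood, all 6 pools, Benjamini-Hochberg adjusted p of 0.05 or less) in R 4.3.3, with limma 3.58.1 and DESeq2 1.42.0 as alternatives. CPM and FPKM in the text use TMM library sizes. The procedure was tested on simulated data, drawn independently for each gene. That simulation held no GC trend and no shift shared by the genes of a pool, so it cannot show how the procedure handles them. An exact permutation test of 3 pools against 3 has a smallest p of 0.1. Intervals cover the spread between these pools, and reads are not independent molecules. Correlations used Python.

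The members and gene lists were chosen with earlier results of these data known. Named genes were Rbm47, the 10 members, in each repair, signalling or p53 list the genes called and the 2 with the smallest p, Dntt, Poll and Nbn, the most and the least alike pair of members, and the 3 listed genes most like their mean profile. Marker genes named beside them were chosen after their values were seen. Alternatives were other scalings, filters and tools, a GC offset, the replicate number as a block, and each pool left out. Leaving out the 2 pools highest in smooth muscle genes was added after seeing the data.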

Additional observations from a re-analysis of the deposited data

How the results depend on the processing

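No member was called under any of 18 other settings, and 9 or 10 of the 10 lay below 0 in each, with a median between -0.27 and -0.11. The value of -0.11 was that without wt pool 1. The count of genes called over the whole table was 443, and it moved to 1243 with DESeq2, 212 with the GC offset and 0 to 431 with 1 pool left out. It was 0 without pool 2 labelled Rbm47_IKO by edgeR (1729 genes at an unadjusted p under 0.05, and 618 called by DESeq2), 11 without wt pool 3, 32 without pool 1 labelled Rbm47_IKO and 119 without pool 3 labelled Rbm47_IKO. The number of a pool did not pair the genotypes: deviations of same-numbered pools correlated at 0.41, -0.0026 and -0.28. A fit with the replicate number as a block called 100 genes, and 162 with the GC offset added, and no member in either. Rbm47 passed the threshold with DESeq2 (0.41) and with library size only (0.41), and with 1 pool left out it lay between 0.40 and 0.44. Xrcc5 changed sign, at -0.022 with upper quartile factors, -0.00095 with library size only and -0.085 to 0.11 with 1 pool left out. With 1 pool left out Polm lay between -0.11 and 0.037, Parp2 between -0.15 and 0.024 and Parp1 between -0.25 and 0.093. Sesn2 was not called without a filter, under the block or without the 2 pools high in smooth muscle genes (fold changes of 0.75, 0.73 and 0.80 and adjusted p of 0.0520, 0.0877 and 0.0665, edgeR). The cause of these shifts was not tested. With 68 to 1073 counts a pool, the 95% intervals of the members reach from -0.90 to 0.45 on the log2 scale.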
